A study of Mus musculus with 76 samples.

Results

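Macrophages of the mouse atrioventricular (AV) node were compared by their level of Ccr2, the receptor for the monocyte-attracting chemokine Ccl2. Ccr2-high cells had Ccr2 at 100 counts per 1000000 (CPM) or more, and Ccr2-low cells had it below 10 CPM. Of 75 cells, 23 were Ccr2-high and 37 were Ccr2-low, which gave 60 cells for the comparison. The other 15 cells, at 10 to under 100 CPM, entered neither group. All cells came from wild-type C57BL/6J mice with no treatment named, and both groups share the same dissection, digestion and sort. According to the protocols in the labels, the triangle of Koch, which holds the AV node, was excised from perfused hearts, and living single cells were sorted as high in CD45, CD11b and F4/80, low to intermediate in Ly6C and low in markers of other blood lineages. Cells were captured on a Fluidigm C1 chip, and each library is 1 cell. Neither an animal nor an age, chip or batch is given in the labels, and all cells count as 1 sample. Cells are not replicates of a condition, and no p-value or standard error is given: differences are described by their size and by the spread over cells.

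Macrophages of the heart have more than 1 origin. One population seeds the heart before birth and renews locally, and it carries surface proteins such as Lyve1, Timd4 and Folr2. Another is replenished from blood monocytes, which use Ccr2 to leave the bone marrow and enter tissue, and Ccr2 is commonly used to tell the populations apart. MHC class II proteins, which present peptides to CD4+ T cells, vary within both.

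Ccr2 in the Ccr2-high cells ranged from 104 to 13014 CPM with a median of 2730.3 CPM, and averaged 3443 ± 3127 CPM (SD over 23 cells). In Ccr2-low cells it ranged from 0 to 9.9 CPM with a median of 4.6 CPM. The groups were chosen by these values, which are therefore a description and no finding. The 4 lowest Ccr2-high cells had 104, 129, 153.8 and 195.3 CPM, and the next had 662.6 CPM. The cells just outside had 63.8, 60, 58.5 and 55.1 CPM. On the low side the cells nearest to the limit had 9.9, 9.9, 8.9 and 7.8 CPM, and those just outside had between 10 and 14.7 CPM. Of the Ccr2-low cells 35 had some Ccr2, so they are cells with little of the transcript in these libraries, and 2 were listed at 0. Transcriptomes 13 and 19 were nearly identical and were averaged as 1 cell. Transcriptome 13 had 9 CPM and transcriptome 19 had 33.5 CPM, on either side of the lower threshold. Their average of 21.25 CPM fell between the thresholds.

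**Figure D1:**
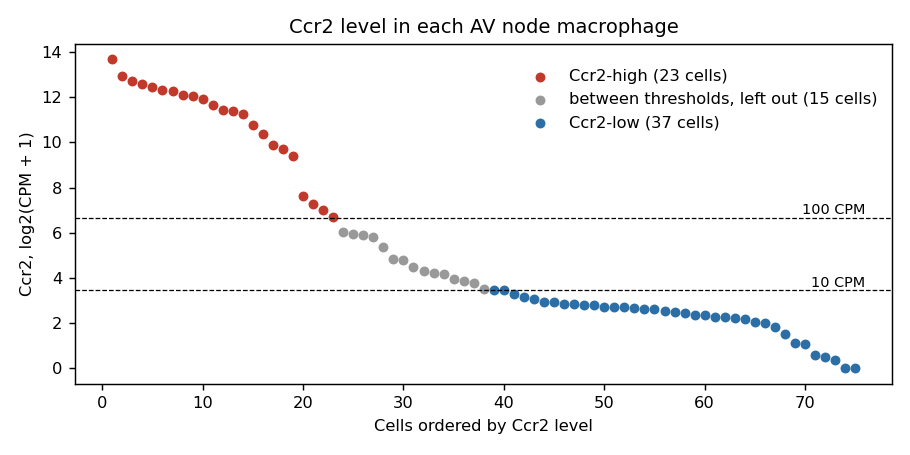
Ccr2 level of each of the 75 cells as log2(CPM + 1), with cells in order of that level along the horizontal axis; dashed lines mark 100 and 10 CPM. The 23 Ccr2-high cells lie between 104 and 13014 CPM, the 37 Ccr2-low cells between 0 and 9.9 CPM, and 15 cells lie between the lines and were left out.

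Ccr2-high cells had more genes detected. The estimated reads per cell had a median of 2209933 in Ccr2-high cells and 2495183 in Ccr2-low cells, within a range of 259555 to 6291265 over all cells. Genes above 0 numbered 2667 to 4327 with a median of 3430 in Ccr2-high cells, and 2324 to 4382 with a median of 3104 in Ccr2-low cells. After every cell was thinned to 250000 reads the medians were 2294 and 2062 genes. Of the Ccr2-high cells 18 lay at or above the median of 3179 genes over all cells and 5 below it, against 17 and 20 of the Ccr2-low cells. Values within the cells with fewer genes are given beside the named genes whose call is lost there and beside the main lists, and they rest on only 5 Ccr2-high cells.

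The labelled cell type was checked against 10 macrophage markers, and some Ccr2-high cells stood apart. Lyz2, the lysozyme of macrophages, was at 1793 to 39037 CPM in Ccr2-high cells and 12072 to 50583 CPM in Ccr2-low cells, and Tyrobp, an adaptor of immune receptors, was at 10 CPM or more in all 60 cells. Ccr2-high cells had 3 to 10 of the 10 markers at 10 CPM or more, with a median of 7, and Ccr2-low cells had 7 to 10, with a median of 9. Thus 8 Ccr2-high cells had fewer markers than any Ccr2-low cell. In these 8 cells the Fc receptor Fcgr1 reached at most 1.1 CPM and the clearance receptor Mertk at most 0.6 CPM. C1qa, a chain of complement C1q, was at 10 CPM in 1 of them, and the transcription factor Maf in 2. Other markers were present in more of them. Csf1r, the receptor for the macrophage growth factor Csf1, was at 10 CPM in 6 of them, the lysosomal protein Cd68 in 5 and Emr1 in 4. C1qb, another chain of C1q, had a median of 177.05 CPM in the 8 cells and was at 100 CPM or more in 4. Their depth was within the range of the others, with 974688 to 3294855 reads and 3005 to 4134 genes above 0. Their median of 3649.5 genes was above the median of 3179 over all cells. Leaving them out and splitting cells by genes detected are therefore not separate checks. They were high in MHC class II, with H2-Aa at 6219.6 to 44379.5 CPM, and had Lyve1 at no more than 4.1 CPM. High class II was shared with most other Ccr2-high cells. The H2-Aa median was 16338.8 CPM in the 8 cells and 15121.6 CPM in the other 15, of which 12 were at 100 CPM or more. Lyve1 was at 100 CPM or more in 7 of those 15. In 3 of the 8 the C-type lectin Cd209a, listed here as a dendritic cell marker, was at 100 CPM or more, and its highest value was 5827 CPM; the whole dendritic cell list, whose members went both ways, is given with the other marker lists. In 6 of them Ear2, a ribonuclease of the eosinophil-associated family, was at 100 CPM or more, and in 7 of them Fn1, which encodes fibronectin, was. The counts over genes and lists were therefore also made without these 8 cells, an alternative chosen after the data were seen.

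**Figure D2:**
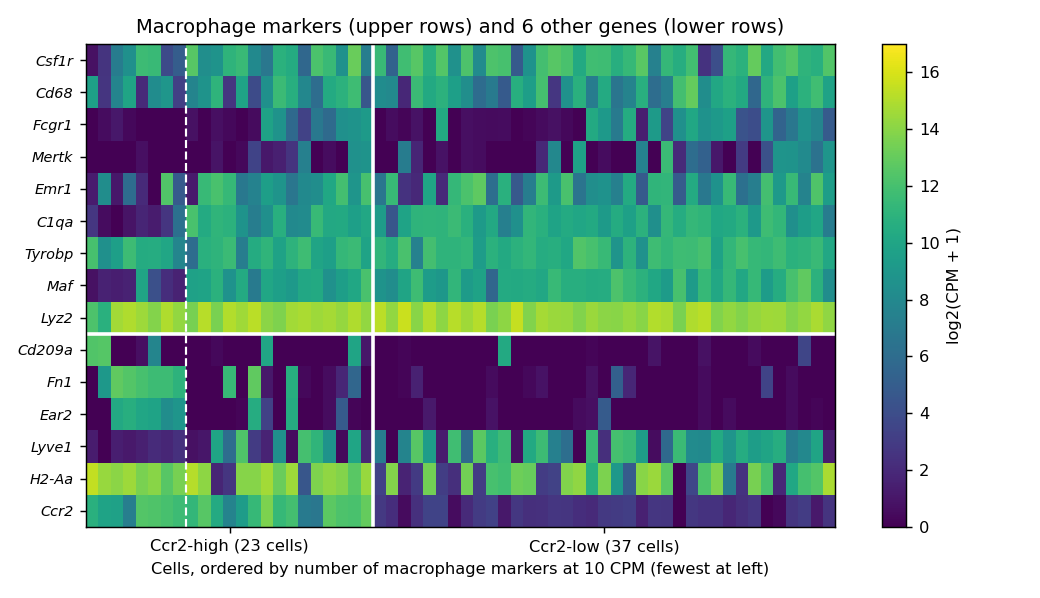
Level of 9 of the 10 macrophage markers (upper rows) and of 6 other genes (lower rows) in each cell as log2(CPM + 1), with the 23 Ccr2-high cells at left and the 37 Ccr2-low cells at right, each ordered by the number of macrophage markers at 10 CPM. Left of the dashed line are the 8 Ccr2-high cells with fewer markers than any Ccr2-low cell. Fcgr1, Mertk and Lyve1 are near 0 in these 8 cells while H2-Aa is high. Fcgr1 and Mertk are also low in many other cells, and H2-Aa is high in most other Ccr2-high cells.

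Across the transcriptome the groups differed in part and overlapped in every gene. Differences are of mean log2(CPM + 1), Ccr2-high minus Ccr2-low, and a size of 2 was used as the threshold. Of 8350 genes above 0 in 8 or more cells, 167 were higher by 2 or more in Ccr2-high cells (2.00%) and 118 were lower (1.41%). The median difference over all of these genes was 0.06. The counts were 154 higher and 68 lower without the 8 cells, 232 and 307 within cells with more genes detected, and 613 and 321 within cells with fewer. By the log2 ratio of mean CPM, which follows the highest cells, they were 972 and 1441. No tested gene had all values of one group above all values of the other. The gene whose cells were ordered best was Capg, where the Ccr2-high cell was the higher one in 87.1% of all pairs of a Ccr2-high and a Ccr2-low cell, and at the other end stood Cd63 with 12.3%.

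Among genes at 10 CPM or more in at least 50% of a group, the 12 with the largest positive difference held proteins of the actin cytoskeleton, secreted defence proteins and enzymes. Capg, which caps actin filaments, led them. It ranged from 2 to 8481 CPM with a median of 1072.5 CPM in Ccr2-high cells, and from 0 to 6456 CPM with a median of 18.3 CPM in Ccr2-low cells, a difference of 5.03. Nearly every Ccr2-high cell was high, with 22 of 23 at 10 CPM or more, while Ccr2-low cells were split, with 19 of 37. At 100 CPM the counts for Capg were 21 of 23 Ccr2-high cells, 91.3% (exact 95% interval 72.0 to 98.9%), and 10 of 37 Ccr2-low cells, 27.0% (13.8 to 44.1%). These intervals cover the sampling of cells only.

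Abcg1, a transporter that moves cholesterol out of cells, ranged from 0 to 3314 CPM with a median of 684.8 CPM in Ccr2-high cells and from 0 to 8005 CPM with a median of 0.3 CPM in Ccr2-low cells, a difference of 5.03. The highest single value was in a Ccr2-low cell, yet 15 of 23 Ccr2-high cells against 6 of 37 Ccr2-low cells reached 10 CPM. Clec4b1, a C-type lectin receptor, had medians of 308.2 and 0 CPM in Ccr2-high and Ccr2-low cells, with highest values of 1978 and 481.6 CPM. At 100 CPM Clec4b1 marked 14 of 23 Ccr2-high cells and 1 of 37 Ccr2-low cells. Lyz1, the lysozyme better known from the intestine, ranged from 0 to 10062 CPM with a median of 1010.1 CPM in Ccr2-high cells and from 1.2 to 329.6 CPM with a median of 6 CPM in Ccr2-low cells, a difference of 4.40. Reads of the near-identical Lyz2 could be placed on Lyz1, and every cell was high in Lyz2, so low Lyz1 values are uncertain; 14 of 23 Ccr2-high and 2 of 37 Ccr2-low cells were at 100 CPM or more.

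Naaa, a lysosomal amidase that degrades fatty acid ethanolamides, had medians of 67.7 and 0 CPM in Ccr2-high and Ccr2-low cells, and 18 of 23 against 6 of 37 cells reached 10 CPM. Plbd1, a phospholipase B-like protein, had medians of 148.6 and 0.3 CPM in Ccr2-high and Ccr2-low cells, with 16 of 23 Ccr2-high and 8 of 37 Ccr2-low cells at 10 CPM. Tep1, a component of the vault and telomerase particles, had medians of 899.7 CPM in Ccr2-high and 18.2 CPM in Ccr2-low cells, and 22 of 23 against 20 of 37 cells reached 10 CPM. These 3 genes thus overlapped between groups, and most Ccr2-high cells lay above most Ccr2-low cells. Gda, the enzyme that deaminates guanine, differed by 3.87, the paired immunoglobulin-like receptor Pilra by 3.60 and the annexin Anxa1 by 3.57. Retnla, a secreted protein linked to alternative activation of macrophages, ranged from 0 to 57872 CPM with a median of 928.3 CPM in Ccr2-high cells and from 0 to 1288 CPM with a median of 17.3 CPM in Ccr2-low cells. The Retnla difference was 4.55 over all cells, and it was 0.37 within the cells that had fewer genes detected.

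Fn1 was outside the rule for named genes and was chosen after its values were seen. It ranged from 0 to 7428 CPM in Ccr2-high cells, with 11 of 23 at 10 CPM or more, and from 0 to 35.4 CPM in Ccr2-low cells, with 1 of 37. Its median was 2.5 CPM in Ccr2-high and 0 CPM in Ccr2-low cells, so the difference of 5.01, or 1.52 within cells with fewer genes detected, describes part of the Ccr2-high group. Ear2 also marked a part of the group: 8 of 23 Ccr2-high cells and 0 of 37 Ccr2-low cells were at 100 CPM or more, and a count of 0 of 37 allows a share of up to 8.11%. The Ear2 difference was 3.58 over all cells and 1.75 without the 8 cells, and within cells with fewer genes detected it was -0.27.

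**Figure D3:**
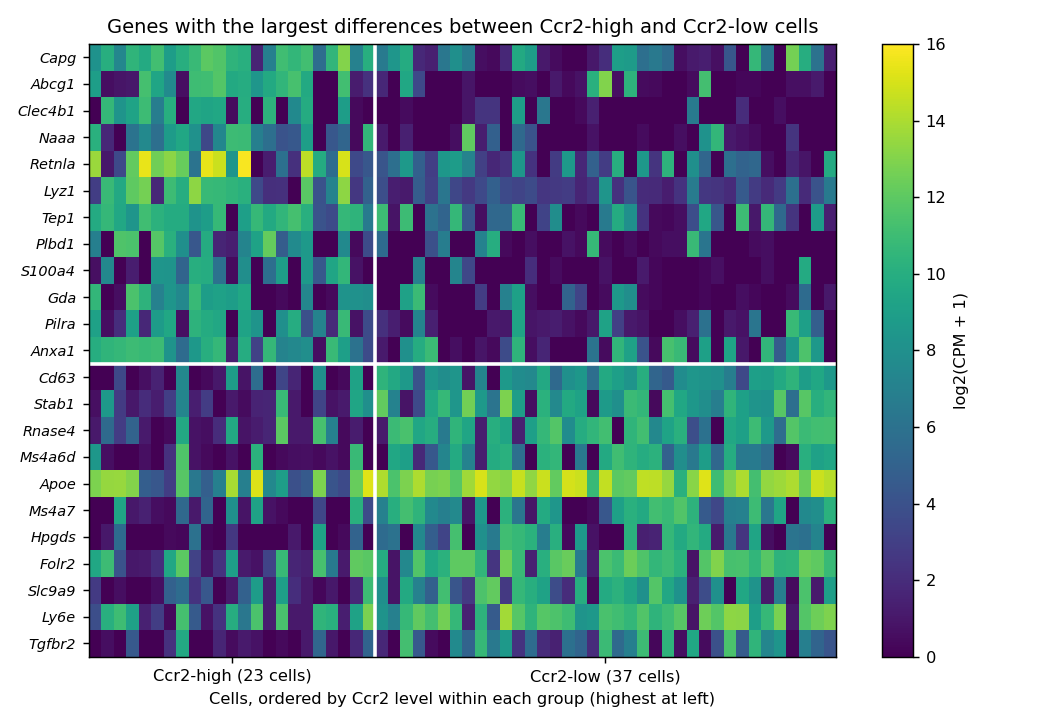
Levels of the 12 genes with the largest positive differences (upper rows) and 11 of the 12 with the largest negative differences (lower rows) as log2(CPM + 1) in the 23 Ccr2-high cells at left and the 37 Ccr2-low cells at right, ordered by Ccr2 level. Capg and Tep1 are high in nearly all Ccr2-high cells and in part of the Ccr2-low cells, whereas Cd63 and Stab1 are low in most Ccr2-high cells and high in most Ccr2-low cells.

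The list of genes known from monocyte-derived macrophages was higher in the Ccr2-high cells. Of its 20 genes 13 had values and 12 were tested: 7 were higher by 2 or more and 0 were lower, where 2.00% of all tested genes were higher and 1.41% lower. The median difference was 2.64 beside 0.06 over all genes. These 2 shares are the background for every list below, and in lists of these sizes a count of 0 or 1 is near it. Lsp1 and Cd52, the markers named with the rule for the groups, were among the 7 higher genes. Their calls are therefore no separate support, and the list was chosen with earlier results of these data known. Lsp1, an actin-binding protein of white blood cells, ranged from 30.8 to 12588 CPM with a median of 1852.3 CPM in Ccr2-high cells and from 0 to 9322 CPM with a median of 207.9 CPM in Ccr2-low cells. All 23 Ccr2-high cells had Lsp1 at 10 CPM or more, against 24 of 37 Ccr2-low cells, and the difference was 3.48. Cd52, a small surface glycoprotein of leukocytes, had medians of 530.5 CPM in Ccr2-high and 2.6 CPM in Ccr2-low cells, with 17 of 23 and 17 of 37 cells at 10 CPM, and differed by 3.11. Within cells with fewer genes detected Lsp1 differed by 1.89 and Cd52 by 1.96, both under the threshold.

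The calcium-binding S100 proteins were the largest family on that list. S100a4 had medians of 54.6 and 0 CPM in Ccr2-high and Ccr2-low cells, 14 of 23 against 3 of 37 cells at 10 CPM, and a difference of 4.04. That difference was 5.54 within cells with more genes detected and -0.83 within cells with fewer, where only 5 cells are Ccr2-high. S100a6 differed by 3.29, or -0.42 within cells with fewer genes, S100a10 by 2.16 and S100a11 by 1.65, and the transmembrane protein Ifitm6 by 3.15, or 1.33 within those cells. The remaining tested genes stayed under the threshold: Ahnak at 1.95, Crip1 at 1.40, Napsa at 1.39 and Tmsb10 at 0.97. The mean level of the list per cell, as mean log2(CPM + 1) over its tested genes, was 2.91 to 9.51 with a median of 5.75 in Ccr2-high cells and 0.97 to 5.90 with a median of 3.34 in Ccr2-low cells. Thus 11 of 23 Ccr2-high cells lay above every Ccr2-low cell and none below. Leaving out the 8 cells, 4 of the 12 genes were higher by 2 or more and the median difference was 1.78; within cells with fewer genes detected it was 0.30. Of 10 genes on a separate list of monocyte markers 2 were tested, and neither passed the threshold.

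The MHC class II list was higher in Ccr2-high cells as well, and its tested members differed in one direction. Of 11 listed genes 10 had values and were tested, 7 were higher by 2 or more, 0 were lower, and all 10 differences were above 0, with a median of 2.71. The class II alpha chain H2-Aa ranged from 2.4 to 44379.5 CPM with a median of 15298 CPM in Ccr2-high cells and from 0 to 29647 CPM with a median of 3967 CPM in Ccr2-low cells, a difference of 3.46. The beta chain H2-Ab1 ranged from 38 to 38733 CPM with a median of 16817 CPM in Ccr2-high cells and from 1.4 to 23551 CPM with a median of 2296 CPM in Ccr2-low cells. Both groups thus held cells with little class II and cells with much, and the groups overlapped. H2-Ab1 differed by 3.04, the second beta chain H2-Eb1 by 3.30, and Cd74, the invariant chain that guides class II molecules, by 2.36.

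Genes that load peptides onto class II followed. H2-DMa differed by 3.11, H2-DMb1 by 2.77 and H2-DMb2 by 2.65. H2-DMb2 was at 10 CPM or more in 7 of 23 Ccr2-high cells and 0 of 37 Ccr2-low cells, where its highest value was 1.8 CPM. It is a close copy of H2-DMb1, so reads may be split between them. Ciita, the transcriptional coactivator of class II genes, differed by 1.92, under the threshold, with 12 of 23 Ccr2-high and 7 of 37 Ccr2-low cells at 10 CPM. The loading regulators H2-Ob and H2-Oa differed by 0.61 and 0.45. All class II genes together took 0.0221 to 17.4% of a cell's CPM in Ccr2-high cells, with a median of 7.32%, and 0.0008 to 11.8% in Ccr2-low cells, with a median of 1.74%. Of the Ccr2-high cells 20 of 23 lay above the median of the Ccr2-low cells in the mean level of the list. The other 3 had class II at no more than 0.185% of CPM, with Ccr2 at 129, 195.3 and 1324 CPM. Without the 8 cells 5 of the 10 genes were higher by 2 or more, with a median difference of 1.94, and within cells with fewer genes detected the median was 2.42. Leaving them out ended the calls of H2-DMb2, at 0.74, and Cd74, at 1.73, and Ciita differed by 0.50. H2-DMb1 and H2-DMb2 differed by 1.27 and 1.69 within cells with fewer genes. Of 18 class I genes tested 0 passed the threshold, a count near the background, and their median was 0.31.

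Class II promoters carry conserved elements, among them the X box and, downstream of it, the Y box, where the factors that recruit Ciita bind. To show the sequence these genes share, the 250 bases before each start in the RefSeq table of build GRCm38.p6 were searched on both strands for CTNNNAAC, letters found in X boxes, and TGATTGG, a Y box whose ATTGG is a CCAAT box read on the other strand. These letters were chosen after the sequences had been seen. They do not overlap each other. Of 32851 windows from 27025 genes, 35.7% held CTNNNAAC and 7.23% held TGATTGG, and 61 windows, or 0.186%, held CTNNNAAC followed by TGATTGG within 30 bases. The 5 class II genes with that pair are shown over the last 150 bases before the start, 5' to 3' on the gene's own strand, with both elements in capitals. They lie on chromosome 17: H2-Aa at chr17:34287824-34287973 on the minus strand, H2-Eb1 at chr17:34305717-34305866, H2-DMb1 at chr17:34153041-34153190, H2-DMb2 at chr17:34145099-34145248 and H2-Ob at chr17:34238755-34238904, all on the plus strand.
H2-Aa: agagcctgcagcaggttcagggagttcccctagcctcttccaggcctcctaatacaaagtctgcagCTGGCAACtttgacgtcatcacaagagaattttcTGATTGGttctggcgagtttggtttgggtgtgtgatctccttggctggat
H2-Eb1: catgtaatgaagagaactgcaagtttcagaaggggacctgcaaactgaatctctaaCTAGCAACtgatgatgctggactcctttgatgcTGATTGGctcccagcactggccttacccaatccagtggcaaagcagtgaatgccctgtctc
H2-DMb1: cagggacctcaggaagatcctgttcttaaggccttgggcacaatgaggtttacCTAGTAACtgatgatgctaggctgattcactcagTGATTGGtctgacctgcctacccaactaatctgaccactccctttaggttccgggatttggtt
H2-DMb2: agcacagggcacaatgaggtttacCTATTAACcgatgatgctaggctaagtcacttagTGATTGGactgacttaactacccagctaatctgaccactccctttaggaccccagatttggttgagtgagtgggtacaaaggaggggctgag
H2-Ob: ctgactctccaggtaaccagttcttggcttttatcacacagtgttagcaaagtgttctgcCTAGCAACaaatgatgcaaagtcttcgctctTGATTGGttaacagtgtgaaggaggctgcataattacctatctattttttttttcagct

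Between the elements lie 26 bases in H2-Aa, H2-DMb1 and H2-DMb2, 25 in H2-Eb1 and 23 in H2-Ob. Of these 5 genes 4 were higher by 2 or more in Ccr2-high cells and H2-Ob was not. H2-Oa held TGATTGG without the other element, and neither of 2 windows of H2-DMa held TGATTGG although H2-DMa differed by 3.11. A match is a description of letters and no match says only that these letters are not in the window. Cd74, H2-Ab1 and Ciita are named without sequence.

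**Figure D4:**
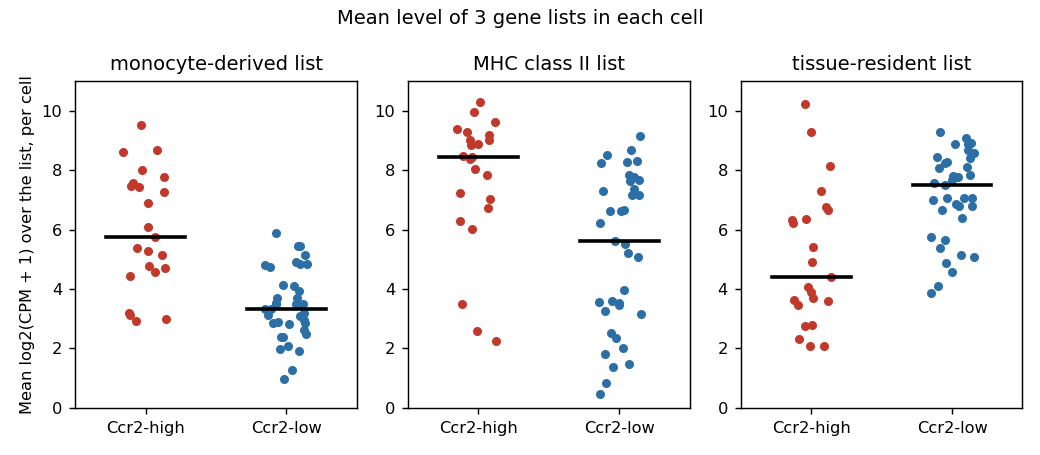
Mean log2(CPM + 1) of the monocyte-derived, MHC class II and tissue-resident lists in each cell, Ccr2-high at left and Ccr2-low at right in each panel; each point is a cell and each bar the median of the group. The monocyte-derived medians are 5.75 and 3.34, the MHC class II medians 8.45 and 5.62, and the tissue-resident medians 4.41 and 7.51, with overlap in all 3 panels.

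The 12 genes with the largest negative difference held scavenger receptors, secreted proteins and other membrane proteins. Cd63, a tetraspanin of lysosomes and endosomes, ranged from 0 to 595.9 CPM with a median of 0.6 CPM in Ccr2-high cells and from 0 to 1385 CPM with a median of 322.5 CPM in Ccr2-low cells, a difference of -5.32. It was at 10 CPM or more in 6 of 23 Ccr2-high cells and 35 of 37 Ccr2-low cells, so most cells of the groups stood apart. Stab1, a scavenger receptor that clears hyaluronan and modified lipoproteins, had medians of 2 CPM in Ccr2-high and 474.1 CPM in Ccr2-low cells, with 5 of 23 and 33 of 37 cells at 10 CPM, and differed by -5.28. The ribonuclease Rnase4 differed by -5.03, with 7 of 23 Ccr2-high and 32 of 37 Ccr2-low cells at 10 CPM.

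Apoe, the apolipoprotein, ranged from 6.5 to 38142 CPM with a median of 179.8 CPM in Ccr2-high cells, and from 1141 to 38130 CPM with a median of 10912 CPM in Ccr2-low cells. The groups reached the same highest Apoe level, and no Ccr2-low cell was low. Its difference of -4.42 was -2.49 without the 8 cells and -0.92 within cells with fewer genes detected. Ms4a6d and Ms4a7, membrane proteins of the tetraspan Ms4a family, differed by -4.49 and -4.32; Ms4a7 differed by -1.51 within cells with fewer genes, and reads of Ms4a6d may be shared with its close copies Ms4a6b and Ms4a6c. Hpgds, which makes prostaglandin D2, was at 10 CPM or more in 4 of 23 Ccr2-high and 23 of 37 Ccr2-low cells, a difference of -4.15. Folr2, a folate receptor of resident macrophages, had medians of 8.4 CPM in Ccr2-high and 1850.6 CPM in Ccr2-low cells and differed by -4.15.

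Slc9a9, which exchanges sodium for protons across endosomal membranes, differed by -3.97, or -1.34 within cells with fewer genes, and Tgfbr2, the type II receptor for TGF-beta, by -3.83. Tgfbr2 was at 10 CPM in 4 of 23 Ccr2-high and 25 of 37 Ccr2-low cells. Ly6e, a GPI-anchored surface protein, had medians of 81.8 CPM in Ccr2-high and 2222 CPM in Ccr2-low cells and differed by -3.88, or -1.60 without the 8 cells and -0.08 within cells with fewer genes detected. Of these 24 leading genes, 24 had the same direction without the 8 cells and 23 were still at 2 or more in size, the exception being Ly6e. Within cells with more genes detected all 24 kept direction and size, and within cells with fewer genes 23 kept direction, S100a4 being the exception, and 18 kept the size. Most of the 8 cells had more genes detected, so this split and leaving them out overlap. Thinning changed the number of cells at 10 CPM by at most 3 in any of them. In the 15 cells between the thresholds, the mean of each of the 24 was nearer to the Ccr2-low mean.

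The tissue-resident list showed the opposite direction to the monocyte-derived list, and most of its calls were lost without the 8 cells. Of 27 listed genes 25 were tested: 16 were lower by 2 or more in Ccr2-high cells and 1, Retnla, was higher, with a median difference of -2.49, which was -1.27 within cells with fewer genes detected. Lyve1, a hyaluronan receptor, ranged from 0 to 5146 CPM with a median of 2.6 CPM in Ccr2-high cells and from 0 to 6709 CPM with a median of 684.2 CPM in Ccr2-low cells, with 8 of 23 and 30 of 37 cells at 10 CPM. Both groups held Lyve1-positive and Lyve1-negative cells, in unequal shares, and the difference was -3.63. Pf4, a chemokine of platelets and resident macrophages, differed by -3.67, the adhesion protein Ninj1 by -3.49, the neonatal Fc receptor Fcgrt by -3.37 and the carbonyl reductase Cbr2 by -3.05. The phagocytic receptor Timd4 differed by -2.49, the growth factor Igf1 by -2.48 and the selenium carrier Sepp1 by -2.16. Within cells with fewer genes Igf1 turned to 1.77, Cbr2 was at -0.12 and Sepp1 at -1.27. Other members did not reach the threshold: the mannose receptor Mrc1 differed by -1.50, F13a1 by -1.38, and Cd163 and Vsig4 by 0.13 and 0.26.

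Without the 8 cells 5 tissue-resident genes were lower by 2 or more, and the median difference was -0.89. Maf, a member of the list, was among the markers that picked the 8 cells. Smaller differences without them thus follow in part from that choice. The 5 were Stab1 at -4.22, Rnase4 at -3.80, Ninj1 at -2.89, Folr2 at -2.27 and Lyve1 at -2.10. Igf1 differed by -0.44, Pf4 by -0.77 and Cbr2 by -0.70 without them. The mean level of the list per cell was 2.09 to 3.62 in the 8 cells. Over all Ccr2-high cells the lowest was 2.09 and the median 4.41, and it was 3.87 to 9.28 with a median of 7.51 in Ccr2-low cells. Of the Ccr2-high cells 9 lay below every Ccr2-low cell and 2 lay above every one, so the Ccr2-high cells covered a wider range of resident genes than the Ccr2-low cells. At 100 CPM, 5 of 23 Ccr2-high cells and 15 of 37 Ccr2-low cells had both Lyve1 and H2-Aa. Timd4 was at 100 CPM in 3 of 23 Ccr2-high and 12 of 37 Ccr2-low cells.

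Complement and clearance genes were lower in Ccr2-high cells where they differed. Of 16 tested 6 were lower by 2 or more and 0 higher, with a median of -1.50; without the 8 cells 1 was lower, and the median was -0.51. Within cells with fewer genes detected the median was -0.73. C1qb, a chain of the first complement component, ranged from 6.3 to 15178 CPM with a median of 4779.6 CPM in Ccr2-high cells and from 2592 to 20382 CPM with a median of 9423 CPM in Ccr2-low cells. No Ccr2-low cell lacked C1qb. The C1qb difference was -2.24 over all cells and -0.22 without the 8 cells, that of C1qa was -2.85 and -0.13, and that of C1qc was -2.63 and -0.30. Msr1, a scavenger receptor, differed by -2.98 and the collectin Colec12 by -2.35, and without the 8 cells by -1.54 and -1.93. In cells with fewer genes C1qa differed by -0.56, C1qc by -1.74, Msr1 by -1.81, Colec12 by -0.22 and Maf by -1.91. Maf, a transcription factor of macrophage identity, differed by -2.96, and by -0.59 without the 8 cells. C1qa and Maf were among the markers that set the 8 cells apart, so their smaller differences without these cells follow in part from that choice.

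Of 39 lysosomal genes tested 2 were higher and 4 lower by 2 or more, with a median of -0.62; without the 8 cells 2 were higher and 2 lower. Over all tested genes the shares were 2.00% and 1.41%. Lyz1 was among the higher ones. Cd63, the protease Lgmn at -2.69 and the mannosidase Man2b1 at -2.57 were among the lower ones, and without the 8 cells these last differed by -0.20 and -1.51. Lgmn differed by -0.75 within cells with fewer genes. Iron and haem genes were lower where they differed: of 18 tested 5 were lower and 0 higher, with a median of -0.52. Trf, the plasma iron carrier transferrin, ranged from 0 to 588.8 CPM with a median of 109.8 CPM in Ccr2-high cells and from 49.8 to 1871 CPM with a median of 471.9 CPM in Ccr2-low cells, a difference of -3.22. Of the Ccr2-high cells 15 of 23, and of the Ccr2-low cells all 37, had Trf at 10 CPM or more. The iron exporter Slc40a1 reached at most 1.1 CPM in any Ccr2-high cell, whereas 9 of 37 Ccr2-low cells had it at 10 CPM or more, and it differed by -2.09. Without the 8 cells Trf and Slc40a1 were the 2 iron genes still lower by 2 or more, at -2.17 and -2.02. In cells with fewer genes Trf differed by -1.31 and Slc40a1 by -0.86. Blvrb, a biliverdin reductase, differed by -2.42 over all cells, by -0.58 without the 8 cells and by 0.62 within cells with fewer genes detected.

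Lipid genes were mixed. Of 26 tested 5 were higher and 2 lower by 2 or more, with a median of 0.50 over all cells and -0.0029 within cells with fewer genes. Beside Abcg1 the higher ones included Lpl, the lipoprotein lipase, at 3.47, the galectin Lgals3 at 2.75 and the acyl-CoA ligase Acsl4 at 2.00. Apoe and Hpgds were the lower ones. Within cells with fewer genes detected Lpl differed by 0.63, Lgals3 by 0.90 and Acsl4 by -1.17. Lpl was at 10 CPM in 12 of 23 Ccr2-high and 6 of 37 Ccr2-low cells. Abcg1 at 3.01 and Lpl at 2.38 were still higher by 2 or more without the 8 cells. Of 15 glycolysis genes 1 passed, Eno1 with a difference of 2.67, a count near the background; the list's median of 0.38 was -0.43 within cells with fewer genes.

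Of 12 tested receptors for chemokines and other attractants, Ccr2 apart, 4 were lower by 2 or more in Ccr2-high cells and 0 were higher, the count of 0 being near the background: Gpr183, a receptor for oxysterols, at -2.91, the complement receptors C5ar1 at -2.88 and C3ar1 at -2.03, and S1pr1, the sphingosine 1-phosphate receptor, at -2.77. S1pr1 was at 10 CPM in 1 of 23 Ccr2-high cells and 17 of 37 Ccr2-low cells. Gpr183 was at 10 CPM in 6 of 23 Ccr2-high and 23 of 37 Ccr2-low cells. Both kept their size without the 8 cells, with -2.44 for S1pr1 and -2.84 for Gpr183, whereas C5ar1 differed by -0.72 and C3ar1 by 0.32. C3ar1 differed by -0.12 within cells with fewer genes. Among 24 chemokine and cytokine genes 0 were higher and 3 were lower, or 1 without the 8 cells. Ccl12, a monocyte-attracting chemokine, was at 136.7 CPM at most in Ccr2-high cells and at 4539.6 CPM at most in Ccr2-low cells. It reached 10 CPM in 2 of 23 Ccr2-high and 18 of 37 Ccr2-low cells and differed by -3.36. Cxcl16 differed by -2.56 and Tgfbi by -2.11, and without the 8 cells by -1.76 and -1.65. In cells with fewer genes Ccl12 differed by -0.59, Cxcl16 by 0.02 and Tgfbi by -1.98. The abundant chemokines Ccl6 and Ccl9 differed by 1.40 and 1.39, under the threshold.

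Adhesion and cytoskeletal genes were higher where they differed. Of 21 adhesion genes 4 were higher by 2 or more and 0 lower, with a median of 0.16 over all cells. That median was below 0 in both strata, at -0.30 within cells with more genes and -0.48 within cells with fewer. The 4 were the adhesion protein Emb at 3.23, the hyaluronan receptor Cd44 at 2.90, Alcam at 2.71 and Itga4, an integrin chain used by monocytes to bind endothelium, at 2.25. Cd44 had medians of 544.1 CPM in Ccr2-high and 46.7 CPM in Ccr2-low cells, with 19 of 23 and 21 of 37 cells at 10 CPM. Of 38 actin and migration genes 6 were higher and 0 lower, with a median of 0.88: Capg, Anxa1, Anxa2 at 3.43, Arhgap15 at 3.12, the small GTPase Rac2 at 2.97 and Cotl1 at 2.48. Anxa2 differed by 1.05 within cells with fewer genes, and Alcam by 1.79 and Cotl1 by 1.33 within cells with more. Rac2 was at 10 CPM in 21 of 23 Ccr2-high and 23 of 37 Ccr2-low cells. Leaving out the 8 cells, 3 adhesion and 5 actin genes were higher by 2 or more.

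Of 34 Fc and lectin receptors 4 were higher and 2 lower, with a median of -0.27. Clec4b1, Pilra, Lilra6 at 2.47 and Clec4a3 at 2.12 were higher, and Clec4n at -2.77 and Siglece at -2.11 were lower. Several of these belong to families of near-identical receptors, so the counts of single members are uncertain. Lilra6 differed by -0.25 within cells with fewer genes detected, and Siglece by -1.42 within cells with more. Of 44 transcription factors 2 were higher and 6 lower, with a median of 0.26. Id2, an inhibitor of basic helix-loop-helix factors, had medians of 491.5 CPM in Ccr2-high and 0.5 CPM in Ccr2-low cells and differed by 3.13, or 1.52 without the 8 cells. Mef2c differed by -3.16, the stress-response factor Nfe2l2 by -2.52 and Runx1 by -2.11, and all 3 were still lower by 2 or more without the 8 cells, at -2.07, -2.87 and -2.43. Within cells with fewer genes, however, Mef2c differed by 0.20 and Runx1 by 0.04. Of 32 interferon-response genes 0 were higher and 5, with Ly6e, were lower, and without the 8 cells 0 were. Immediate early and heat shock genes, known to respond to tissue digestion, held 1 of 31 past the threshold, near the background: Ier3 at -2.83, or -1.87 within cells with fewer genes. Of 16 cell cycle genes 0 passed.

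**Figure D5:**
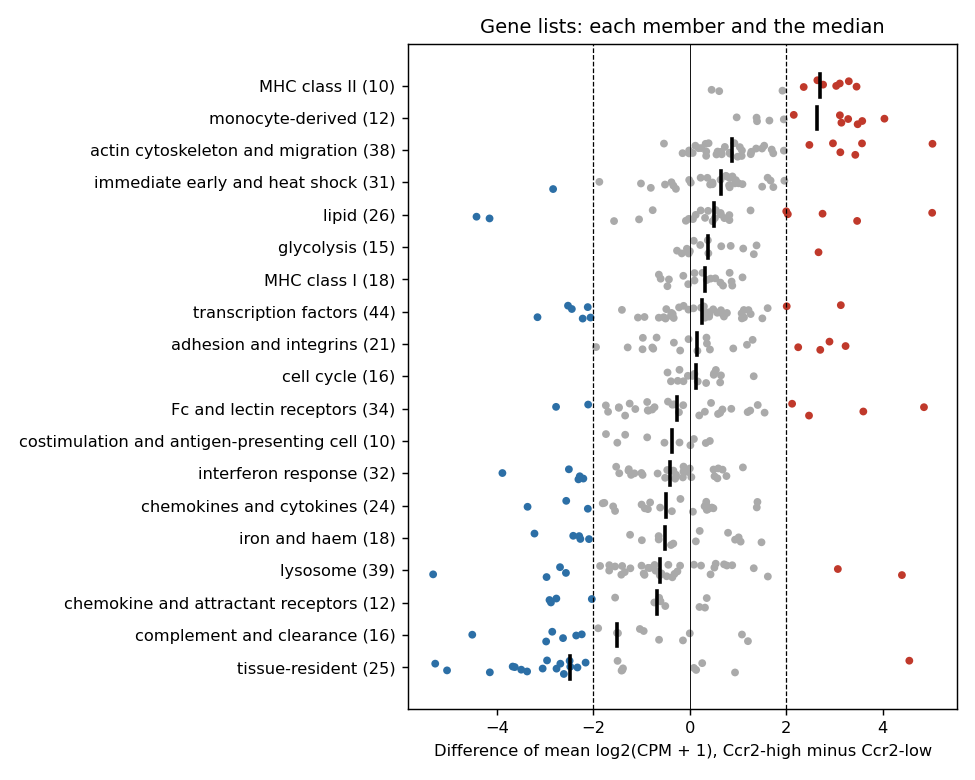
Difference of mean log2(CPM + 1), Ccr2-high minus Ccr2-low, for each tested member of the gene lists (points) with the median of each list (bar) and its number of tested genes in parentheses; dashed lines mark differences of 2 and -2. The MHC class II and monocyte-derived lists have the highest medians, 2.71 and 2.64, and the tissue-resident list the lowest, -2.49.

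Markers of other cell types and of the sort were set beside these results. Ptprc and Itgam, which encode the sorted CD45 and CD11b, differed by 1.03 and 0.81, and Emr1, which encodes F4/80, by -1.20; none passed the threshold. All 10 macrophage markers were lower in mean in Ccr2-high cells, 3 of them by 2 or more, with Maf and C1qa among these, and their summed level was 2498 to 52038 CPM in Ccr2-high cells and 20645 to 61621 CPM in Ccr2-low cells. When the 8 cells were left out, 0 of the 10 passed. The 8 cells had been picked by these same 10 markers, so smaller differences without them follow in part from that choice. Of 5 tested dendritic cell markers 0 passed: Cd209a, Batf3 and Kmo differed by 1.93, 1.25 and 0.34, and Siglech and Bst2 by -1.58 and -1.53. Their median was 0.34, and -0.49 without the 8 cells, where Cd209a differed by 0.98. The summed level of the dendritic cell list was 0 to 7031 CPM in Ccr2-high cells and 0 to 3408 CPM in Ccr2-low cells. Cd209a was at 100 CPM or more in 5 of 23 Ccr2-high cells, 21.7% (exact 95% interval 7.46 to 43.7%), and 1 of 37 Ccr2-low cells, 2.70% (0.0684 to 14.2%). Flt3, Xcr1, Clec9a and Ccr7, other markers of dendritic cells, were not analysed here. Cardiomyocyte genes were near 0 in both groups, with summed medians of 0 and 1.1 CPM in Ccr2-high and Ccr2-low cells. Y-linked transcripts at 10 CPM or more were seen in 17 of 23 Ccr2-high cells, 73.9% (51.6 to 89.8%), and 25 of 37 Ccr2-low cells, 67.6% (50.2 to 82.0%). The part of other cell types in the differences was not tested.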

How the data were processed

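Single AV node macrophages were profiled on a Fluidigm C1 chip with SMARTer cDNA and Nextera XT libraries, per the labels' protocols. This chemistry carries no molecular identifiers and no strand, so amplified copies count separately and antisense reads cannot be told apart. Alignment and counting tools in the submitters' processing notes are STAR 2.3.0 and HTSeq 0.6.0, with mm9 as the build and no annotation named. The deposited CPM, to 1 decimal, cover 9235 genes and 76 libraries. Reads per library were estimated from the smallest CPM step (259555 to 6291265, median 2125192). In every library at least 99.2% of low values were whole multiples of that step within 0.051 CPM. No count model was fitted, since cells are not replicates.

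Transcriptomes 13 and 19 were averaged as 1 cell (Pearson r 0.978 over log2 values, at most 0.421 in the other 2849 pairs). No doublet caller was run, and quality removed no cell. Differences are of mean log2(CPM + 1), so changes of low genes are understated, over 8350 genes above 0 in 8 or more cells, Ccr2 itself left out. Shares carry exact Clopper-Pearson 95% intervals, and a count of 0 allows 3 counts of the total. A pair of tied cells counted as 0.5 in shares of cell pairs. Named genes were the 12 largest differences in each direction among genes at 10 CPM in at least 50% of a group, Lsp1, Cd52, the sort markers and the 3 most abundant members of each list. Further list members were named because they passed the threshold, and others after their values were seen. The members and the 21 gene lists and 16 marker lists were chosen with earlier results of these data known. Symbols are as in the files, with 743 older names and 114 unmatched of 9235; genes without values are not analysed here. A few genes are counted in the totals and lists but not reported here by name. The estimate of reads and the differences were tried on simulated data. The simulated shifts were well above the threshold, and smaller ones were not tried. Alternatives changed the pseudocount, filters, thresholds, depth, detection strata, the measure and single cells. Python 3.11.15, numpy 2.4.6, pandas 2.3.3, scipy 1.17.1 and matplotlib 3.10.9 were used.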

Additional observations from a re-analysis of the deposited data

How the results depend on the processing

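The direction of the monocyte-derived, tissue-resident and MHC class II medians held under every alternative tried, but counts of genes past the threshold moved widely. The higher and lower counts, 167 and 118, were 35 and 34 with a pseudocount of 10, 647 and 1571 with Ccr2-low limited to the 2 cells at 0, 613 and 321 within cells below the median number of genes detected, and 972 and 1441 with the log2 ratio of mean CPM. Within cells at or above that median the lower count was 307, and without the 8 Ccr2-high cells it was 68. Leaving out each cell in turn gave 148 to 186 higher and 105 to 133 lower genes, and medians of 2.48 to 2.86 for the monocyte-derived, -2.87 to -2.37 for the tissue-resident and 2.47 to 2.94 for the MHC class II list. The monocyte-derived median was 0.30 within cells with fewer genes detected. The tissue-resident median was -0.96 with the log2 ratio of mean CPM and -0.89 without the 8 cells. The differences of S100a4 at -0.83, Blvrb at 0.62 and Ear2 at -0.27 reversed within cells with fewer genes detected, and that of C3ar1 at 0.32 without the 8 cells; the cause was not tested. Of 624 values of the 39 named genes past the threshold, 620 kept their direction and 554 stayed at 2 or more in size. These 39 include the 24 leading genes, which were picked for their large differences. List members named only because they passed the threshold are not among the 39. Some of those also reversed within cells with fewer genes detected, among them S100a6, Igf1, Acsl4, Lilra6, Mef2c and Cxcl16. Counts changed by less than 1.5 times with Ccr2-high set at 50 or 200 CPM, with the cells between joined to Ccr2-low, with transcriptomes 13 and 19 as 2 cells, after thinning, and under other filters on low values.

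Only 1 sample was available, so the spread between animals is unknown, and 45.5% of values above 0 lay below 10 CPM, where detection limits every share. No paired analysis was possible because the cells carry no replicate numbers and the differences come from no test.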

Other observations

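Most other gene families, chosen after values were seen, differed little, and some leaned in 1 direction. Over all tested genes 2.00% were higher and 1.41% lower, and the counts of ribosomal and solute carrier genes are near these shares. Of 80 cytosolic ribosomal protein genes 0 passed a difference of 2 in either direction, with a median of 0.24. Of 80 respiratory chain and ATP synthase genes 4 were higher and 1 lower in Ccr2-high cells, with a median of 0.37, and of 36 proteasome genes 3 were higher and 0 lower, with a median of 0.57. The Ms4a family, membrane proteins of immune cells, leaned the other way: of 6 tested 4 were lower, Ms4a6d at -4.49, Ms4a7 at -4.32, Ms4a6b at -2.96 and Ms4a6c at -2.42, with a median of -2.69. In cells with fewer genes detected Ms4a7 differed by -1.51, Ms4a6b by -1.15 and Ms4a6c by 0.38. Of 6 tested S100 genes 3 were higher and 1 lower, S100a1 at -2.17. Of 8 annexins 2, Anxa1 and Anxa2, were higher and 0 lower, with a median of 0.84. Of 111 solute carriers 0 were higher and 3 lower, with a median of -0.02. Among 8 TGF-beta and BMP receptors Tgfbr2 was the 1 that passed.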
